A study of Homo sapiens with 6 samples.

Results

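The 116 RNAs described here are the long intergenic non-coding RNAs whose symbols consist of LINC and a number. They were chosen by a rule applied to the deposited gene table: a row filed as non-coding, a symbol of that form, and a mean raw count of at least 30 over the 6 samples. The table held 24054 genes, 7173 of them non-coding, and 903 LINC-numbered rows, all filed as non-coding, so 116 of 903 met the rule. The members were thus selected on a measured value, the mean count over both groups together, which did not use the difference between the groups. All 116 passed the low-count filter of the test.

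RNA-seq was carried out on A2780, an established human ovarian cancer cell line labelled wild type in genotype. One set of 3 libraries came from cells exposed to 1 µM SCR-6920, an inhibitor of the protein arginine methyltransferase PRMT5, for 48 h, and 3 came from control cells, given DMSO per the series' design text. Every library came from this single line, and the labels do not say whether the 3 libraries of a group came from separate cultures, so p-values measure only the spread between these libraries, which may be technical. Of 12 ovarian and epithelial marker genes checked against the label, 11 were in the table and 4 were abundant enough to be tested. KRT7 and ESR1 had no count in any library, and PAX8, MUC16, MSLN, WFDC2 and CDH1 had at most 10. The summed level of these 11 was 6.999 to 9.34 CPM (read counts scaled to library size) in SCR-6920 libraries and 4.87 to 5.93 CPM in DMSO libraries. Its part in the results below was not tested. The fibroblast list (COL1A1, COL1A2, PDGFRA, THY1 and DCN) summed to 568 to 577 CPM in SCR-6920 libraries and 511 to 530 CPM in DMSO libraries, mostly PDGFRA (499 CPM with SCR-6920 and 443 CPM with DMSO), and its part was not tested either. By edgeR's quasi-likelihood test at an adjusted p under 0.05, 3 of the 5 were higher, namely COL1A1, COL1A2 and PDGFRA, and THY1 was lower (log2 -0.30, adjusted p = 1.89e-05). COL1A2 no longer met that threshold without SCR-6920 replicate 2 (0.116) or 3 (0.0706) or DMSO replicate 1 (0.0981). Among the ovarian and epithelial markers, EPCAM (log2 1.78, adjusted p = 0.0103) and KRT8 (log2 0.57, adjusted p = 0.0456) were higher by the same test. KRT18 and FOLR1 were not called. EPCAM lost its call without SCR-6920 replicate 2 (0.0668) or DMSO replicate 1 (0.0738), and KRT8 in 5 of the 6 fits leaving out 1 library. Leukocyte markers summed to 1.86 to 2.44 CPM with SCR-6920 and 2.97 to 3.30 CPM with DMSO, with PTPRC at 0 throughout. CD68 was lower by the same test (log2 -0.54, adjusted p = 0.0458), a call lost in 4 of the 6 fits leaving out 1 library. Endothelial markers summed to 0.388 to 0.472 CPM with SCR-6920 and 0.126 to 0.254 CPM with DMSO, with CDH5 and VWF at 0.

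Long intergenic non-coding RNAs are transcribed by RNA polymerase II from stretches of the genome between protein-coding genes, and most are capped, spliced and polyadenylated like messenger RNAs. Some act on the expression of nearby genes, some act elsewhere as scaffolds for proteins or by pairing with other RNAs, a few turn out to encode small proteins, and most have no known function. PRMT5 places symmetric dimethyl marks on arginines of the Sm proteins of the spliceosome and of histones, so its inhibition is known to alter splicing and transcription broadly.

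Promoters are shown for 6 LINC RNAs with a called change and a RefSeq entry: 3 that rose and 3 that fell. Each is 300 bases of GRCh38.p14 from RefSeq, 250 before and 50 after the annotated start, written 5′ to 3′ on the strand of the gene. Capitals mark exact matches, on either strand, to the TATA box TATAAA, the CCAAT box, the GC box GGGCGG, the E-box CACGTG, the cyclic AMP response element TGACGTCA or the p53 half-site, none of which contains another.
LINC00641, chr14:21206851-21207150, minus strand: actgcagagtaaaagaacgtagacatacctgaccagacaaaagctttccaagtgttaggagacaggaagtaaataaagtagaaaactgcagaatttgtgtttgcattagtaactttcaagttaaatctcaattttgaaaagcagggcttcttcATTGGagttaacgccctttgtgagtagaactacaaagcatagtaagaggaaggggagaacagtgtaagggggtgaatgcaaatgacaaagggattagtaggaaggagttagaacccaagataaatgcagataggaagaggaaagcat
LINC00501, chr3:177294192-177294491, plus strand: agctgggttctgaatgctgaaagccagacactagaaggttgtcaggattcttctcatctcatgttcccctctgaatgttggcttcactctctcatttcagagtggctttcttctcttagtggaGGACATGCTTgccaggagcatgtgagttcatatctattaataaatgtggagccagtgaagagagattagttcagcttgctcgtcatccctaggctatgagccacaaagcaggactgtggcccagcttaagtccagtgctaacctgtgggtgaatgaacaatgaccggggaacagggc
LINC01521, chr22:31346509-31346808, plus strand: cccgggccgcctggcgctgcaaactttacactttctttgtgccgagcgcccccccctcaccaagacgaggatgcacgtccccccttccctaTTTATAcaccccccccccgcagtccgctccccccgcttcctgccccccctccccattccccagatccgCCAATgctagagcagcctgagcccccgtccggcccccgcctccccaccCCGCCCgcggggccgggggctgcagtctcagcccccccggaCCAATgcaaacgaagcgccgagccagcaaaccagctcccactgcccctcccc
LINC02593, chr1:919643-919942, minus strand: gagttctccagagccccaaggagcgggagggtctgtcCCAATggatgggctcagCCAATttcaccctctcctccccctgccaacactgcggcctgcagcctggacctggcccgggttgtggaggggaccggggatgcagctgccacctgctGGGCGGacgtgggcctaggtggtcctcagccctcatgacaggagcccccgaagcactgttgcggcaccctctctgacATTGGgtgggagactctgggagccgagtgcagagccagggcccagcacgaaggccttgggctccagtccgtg
LINC01224, chr19:23416025-23416324, minus strand: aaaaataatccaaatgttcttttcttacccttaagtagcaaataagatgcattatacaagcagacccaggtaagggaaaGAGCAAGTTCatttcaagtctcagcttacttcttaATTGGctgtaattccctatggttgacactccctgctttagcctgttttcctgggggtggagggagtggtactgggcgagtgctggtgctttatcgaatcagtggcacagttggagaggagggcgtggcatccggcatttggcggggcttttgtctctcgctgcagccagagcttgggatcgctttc
LINC01097, chr4:13531368-13531667, minus strand: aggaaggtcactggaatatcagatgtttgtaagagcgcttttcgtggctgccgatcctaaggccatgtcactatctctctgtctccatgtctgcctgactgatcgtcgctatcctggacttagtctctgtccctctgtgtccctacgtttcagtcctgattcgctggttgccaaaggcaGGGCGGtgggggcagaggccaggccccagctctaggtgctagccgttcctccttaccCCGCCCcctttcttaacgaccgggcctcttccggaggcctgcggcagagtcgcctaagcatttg
The promoter of LINC00641 is the first of 2 annotated, has 39% G and C and holds 1 CCAAT box in reverse. That of LINC01521 has 70.7% G and C and 22 CpG dinucleotides, and holds 2 CCAAT boxes, 1 GGGCGG box and 1 TATAAA box. The p53 half-site, the 10-base unit that p53 binds as a pair, was matched once each in the windows of LINC00501 and LINC01224. RefSeq gave such a window for 81 of the 116 members, 14 of them with a called change. Shares were taken over the first listed window of each gene, and all promoters here means those of the 27305 genes with a window. The half-site was present in 6.17% of the 81 member promoters and in 6.54% of all promoters. It was present in 3 of the 14 of called members, the other being LINC01597. TATAAA was present in 21% of member promoters and 12% of all promoters, and CCAAT in 44.4% of member promoters and 35.7% of all. GGGCGG was present in 49.4% of member promoters and 44.6% of all, CACGTG in 6.17% of member promoters and 7.43% of all, and TGACGTCA in 2.47% of member promoters and 1.98% of all. The median G and C content was 57.3% for members and 58.3% for all promoters, with a median of 11 CpG dinucleotides for members and 14 for all. Of the 14 promoters of called members, 5 held TATAAA, 9 CCAAT, 4 GGGCGG, 1 CACGTG and 1 TGACGTCA. These matches describe letters in a window and are not binding sites.

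Most LINC RNAs were scarce. Depth was 38149448 to 38642181 counts in the SCR-6920 libraries and 39122787 to 39749993 counts in the DMSO libraries. The 116 members together took 0.0754% to 0.0775% of all counts in SCR-6920 libraries and 0.0732% to 0.0743% in DMSO libraries. Their median mean count was 103.6, against 923.7 over the 14233 genes tested. Per length, on the authors' FPKM scale (fragments scaled to transcript length and library size), their median level was 1.497, against 6.81 for protein-coding genes tested and 1.17 for the 817 other tested non-coding genes with a mean count of at least 30. Of the members, 14 averaged at least 5 FPKM and 34 averaged under 1 FPKM. The lengths used for this scale ran from 398 to 22216 bases, with a median of 2143.5. RefSeq GRCh38.p14 annotated 113 of the 116, every one as a long non-coding RNA, on 22 chromosomes, 22 of them on chromosome 1. LINC00444, LINC02666 and LINC02804 were not matched.

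The most abundant member per length was LINC02303, an RNA of 553 bases from chromosome 14. It had 66.2, 64.1 and 75.1 FPKM in SCR-6920 libraries, against 83.1, 83.4 and 90.7 FPKM in DMSO libraries. Its 3 SCR-6920 values all lay under its 3 DMSO values. LINC02381, which lies between HOXC4 and the DNA glycosylase gene SMUG1, had 33.6, 33.1 and 34.1 FPKM with SCR-6920 and 32.5, 30.4 and 32.2 FPKM with DMSO. Next came LINC00641, with 11.004, 11.7 and 11.4 FPKM with SCR-6920 and 5.05, 4.76 and 5.67 FPKM with DMSO. In the DMSO libraries alone, LINC00641 stood under LINC00839, LINC00963 and LINC00467, and in the SCR-6920 libraries it stood above all 3.

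LINC00839 averaged 7.72 ± 0.24 FPKM in SCR-6920 cells and 7.19 ± 0.33 FPKM in DMSO cells (SD, n = 3 each). LINC00963 averaged 6.86 ± 0.66 FPKM with SCR-6920 and 7.99 ± 0.61 FPKM with DMSO. LINC00467, which is reported to encode a small protein of mitochondria, averaged 6.44 ± 1.15 FPKM with SCR-6920 and 8.37 ± 0.79 FPKM with DMSO. By group means their order was turned round, LINC00839 being the highest of the 3 with SCR-6920 and the lowest with DMSO. None of the 3 was called as changed between the groups. Within a group, the libraries of neighbours in that order overlapped.

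**Figure D1:**
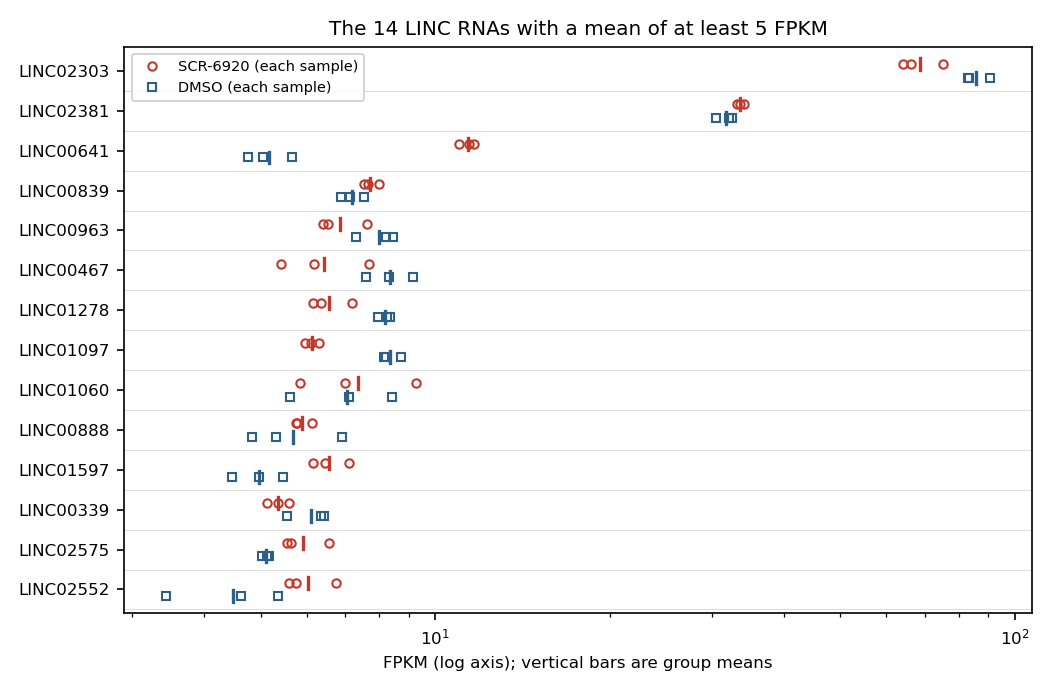
Level per length (FPKM, log axis) of the 14 LINC RNAs with a mean of at least 5 FPKM; each point is a library, SCR-6920 circles above DMSO squares, and vertical bars are group means. LINC02303 sits highest in both groups, at 64.1 to 75.1 FPKM with SCR-6920 and 83.1 to 90.7 FPKM with DMSO, and LINC00641 shows the widest gap between groups.

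Over the 116 members, 23 changed with SCR-6920 at an adjusted p under 0.05 by edgeR's quasi-likelihood test with Benjamini-Hochberg adjustment over all 14233 genes tested. Of these, 10 were higher and 13 were lower. The share called was 19.8%, against 42.0% of all genes tested, 45.0% of protein-coding genes and 27.7% of the 817 other non-coding genes with a mean count of at least 30. Higher calls made up 8.62% of members and 20.6% of all genes, and lower calls 11.2% of members and 21.3% of all genes. The members' share lay under each of these, a difference that was not itself tested. The other non-coding genes had 74 higher (9.06%) and 152 lower (18.6%). The median log2 fold change of SCR-6920 over DMSO was -0.03 over the members (quartiles -0.35 and 0.21), 0.00 over all genes and -0.14 over the other non-coding genes. Of the 116 members, 4 were called with a change of at least 2-fold, against 404 of the 14233 genes tested, and 2 of the 4, LINC02246 and LINC01798, met the count limit only through the group in which they were higher. The CPM values of the groups did not overlap for 39 members, or 33.6%, against 50.6% of all genes and 41.7% of the other non-coding genes.

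The members had fewer reads and wider errors than genes at large. The median standard error of a member's log2 fold change was 0.22, against 0.08 over all genes. Among members with a mean count of 30 to under 100, 4 of 57 were called, or 7.02%, against 16.1% of all genes in that range. From 100 to under 300 counts, 8 of 28 members were called, or 28.6%, against 31.8% of all genes. At 300 counts or more, 11 of 31 members were called, or 35.5%, against 53.4% of all genes, though the median count in that last class was 545.5 for members and 1873 for all genes. How far the count accounts for the difference from other genes was not tested.

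**Figure D2:**
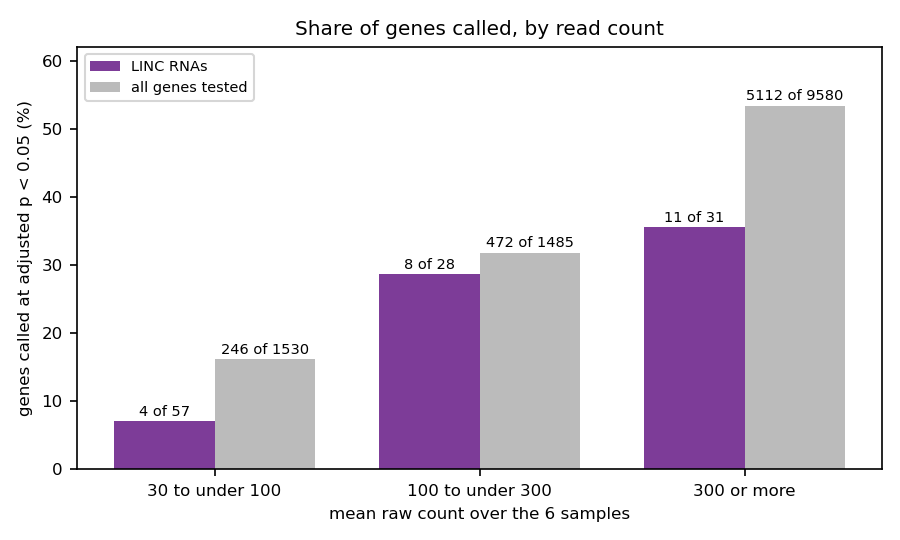
Percent of genes called at an adjusted p under 0.05, for the LINC RNAs and for all genes tested, in 3 classes of mean raw count. The LINC share is 7.02%, 28.6% and 35.5% from the lowest class to the highest, against 16.1%, 31.8% and 53.4% of all genes.

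**Figure D3:**
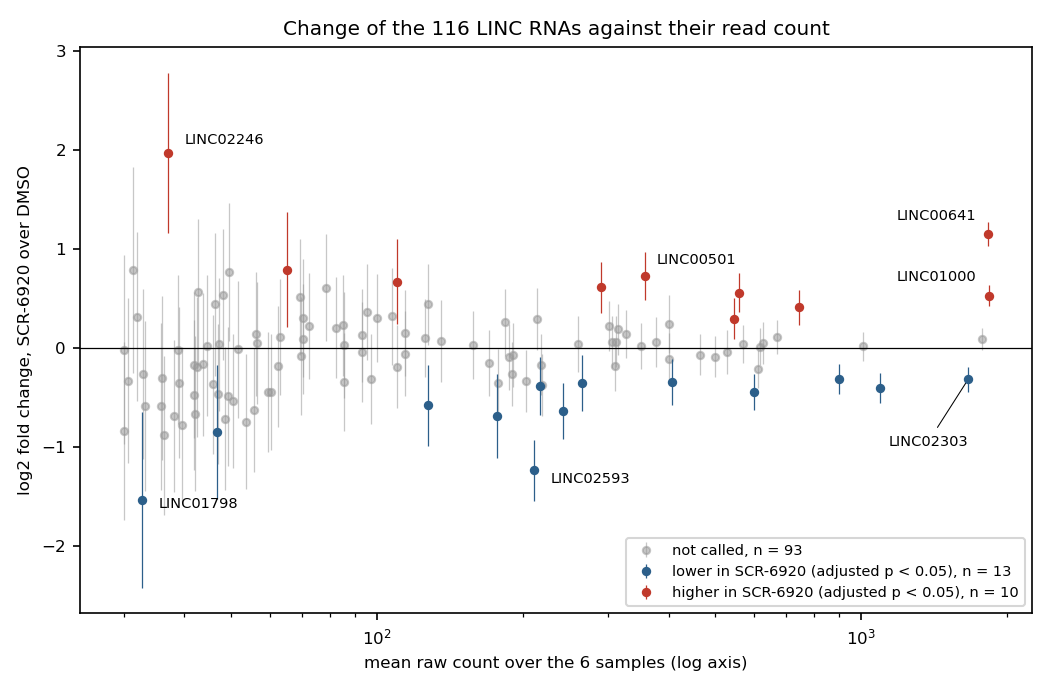
Log2 fold change (SCR-6920 over DMSO) of each of the 116 LINC RNAs against its mean raw count on a log axis, with 95% confidence intervals as bars. The 10 higher and 13 lower RNAs are coloured, and the intervals narrow as the count grows.

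LINC00641 gave the clearest rise. This RNA from chromosome 14, annotated next to HNRNPC, the gene of an abundant nuclear RNA-binding protein, had 63.3, 67.1 and 65.5 CPM in SCR-6920 libraries, against 28.7, 27.2 and 32.3 CPM in DMSO libraries. All SCR-6920 values stood well above all DMSO values. The fold was 2.22 (log2 1.15 ± 0.06 SE, adjusted p = 1.64e-16). HNRNPC itself stood at 1171 CPM with SCR-6920 and 1138 CPM with DMSO (log2 0.04 ± 0.02, adjusted p = 0.148).

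LINC01000, from chromosome 7, was the member with the highest mean count and rose by less. It had 55.7, 55.7 and 56.1 CPM with SCR-6920 and 39.5, 38.5 and 37.99 CPM with DMSO, a fold of 1.44 (log2 0.53 ± 0.05, adjusted p = 6.54e-10). Its libraries were nearly equal within each group.

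LINC02246, named ASMER1 in RefSeq, showed the highest fold among the members, from few reads. It had 55, 51 and 70 counts in SCR-6920 libraries, against 14, 16 and 16 counts in DMSO libraries, and the groups did not overlap. On the CPM scale these were 1.44, 1.33 and 1.84 with SCR-6920 and 0.353, 0.408 and 0.401 with DMSO. The log2 fold change was 1.98 ± 0.40 (95% interval 1.17 to 2.78, adjusted p = 1.24e-04). It was the only riser of 3 members that stood over a mean count of 30 in the SCR-6920 group but not in the DMSO group, so the count limit favoured a difference there.

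A middle group of risers lay between 1.3-fold and 1.7-fold. LINC00501, from chromosome 3, had 10.2, 12.4 and 11.8 CPM with SCR-6920 and 7.20, 7.34 and 6.27 CPM with DMSO (log2 0.73 ± 0.12, adjusted p = 7.89e-06). LINC01521, whose start faces that of the zinc finger gene PATZ1, had 9.49, 8.77 and 8.89 CPM with SCR-6920 and 5.76, 6.27 and 5.64 CPM with DMSO (log2 0.62 ± 0.13, adjusted p = 1.56e-04). LINC01963, from chromosome 2 beside the DNA repair gene XRCC5, had 16.4, 17.04 and 18.2 CPM with SCR-6920 and 10.96, 12.2 and 11.8 CPM with DMSO (log2 0.56 ± 0.09, adjusted p = 1.04e-05). None of these 3 overlapped between groups, and each stayed called when any 1 library was left out. LINC01597, from chromosome 20, averaged 21.9 ± 1.7 CPM with SCR-6920 and 16.5 ± 1.6 CPM with DMSO (SD, n = 3 each; log2 0.41 ± 0.09, adjusted p = 2.06e-04).

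The other 3 risers depended on single libraries. LINC00663 averaged 2.14 ± 0.11 CPM with SCR-6920 and 1.23 ± 0.29 CPM with DMSO (log2 0.79 ± 0.29, adjusted p = 0.0246), and its adjusted p was 0.0740 without SCR-6920 replicate 1, 0.0505 without SCR-6920 replicate 3 and 0.106 without DMSO replicate 3. LINC02035 averaged 3.49 ± 0.48 CPM with SCR-6920 and 2.19 ± 0.30 CPM with DMSO (log2 0.67 ± 0.21, adjusted p = 0.00966, 0.0643 without SCR-6920 replicate 2). LINC01061 averaged 15.5 ± 1.7 CPM with SCR-6920 and 12.6 ± 1.0 CPM with DMSO (log2 0.30 ± 0.10, adjusted p = 0.0176), and its adjusted p was 0.158 without SCR-6920 replicate 2 and 0.107 without DMSO replicate 2. Their groups did not overlap in CPM, and their direction stayed the same in each of those fits.

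**Figure D4:**
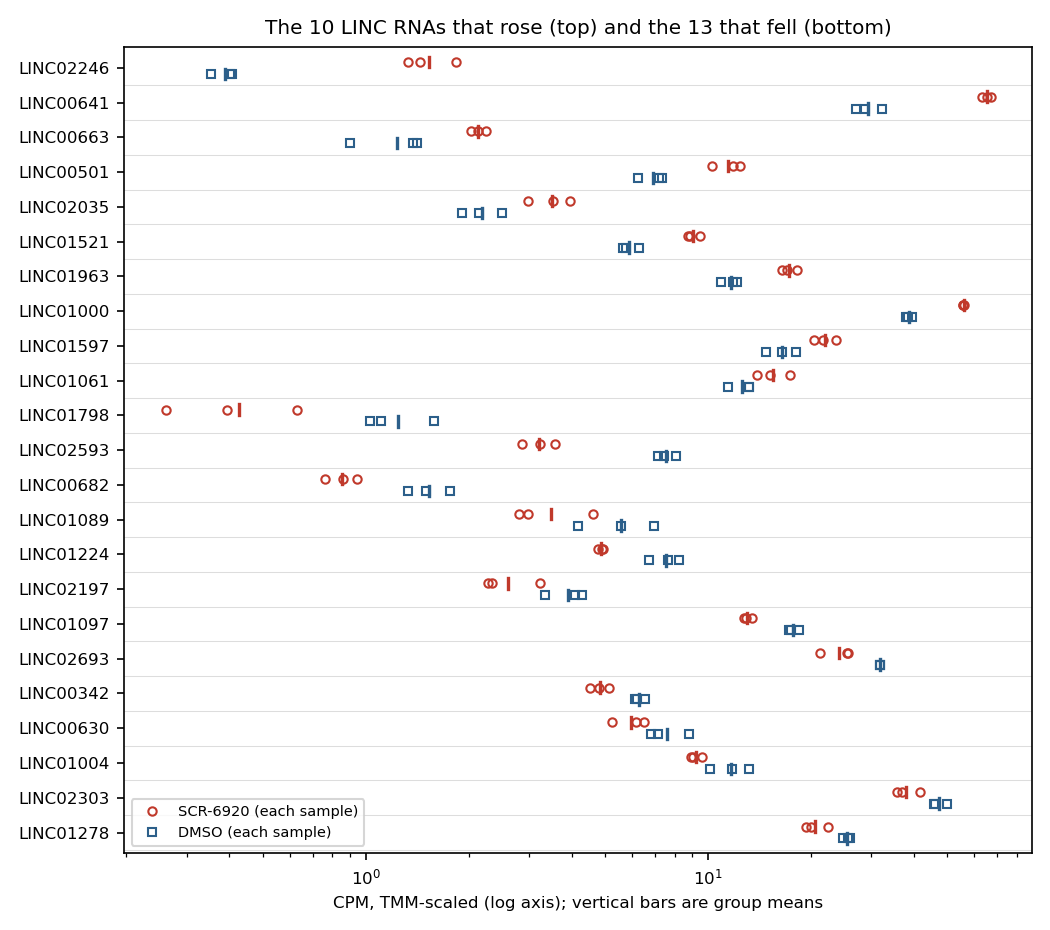
CPM (TMM-scaled, log axis) in each library of the 23 called LINC RNAs, SCR-6920 circles above DMSO squares, with vertical bars at group means and RNAs ordered by fold change. The groups are widest apart for LINC02246 and LINC00641 among the 10 risers and for LINC01798 and LINC02593 among the 13 that fell, and overlap only for LINC01089.

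Among the 13 that were lower, LINC02593 had the smallest adjusted p. This RNA lies near the end of chromosome 1, beside SAMD11, and had 3.56, 3.23 and 2.86 CPM in SCR-6920 libraries, against 8.05, 7.44 and 7.17 CPM in DMSO libraries. Every SCR-6920 value was under 0.5 times the mean of the DMSO values. The log2 fold change was -1.23 ± 0.15 (adjusted p = 5.37e-08). LINC01798, from chromosome 2 between the homeobox gene MEIS1 and ETAA1, fell further but from few reads. It had 15, 10 and 24 counts with SCR-6920 and 44, 62 and 41 counts with DMSO (log2 -1.53 ± 0.44, 95% interval -2.42 to -0.64, adjusted p = 0.00480). It was the only one called of 10 members that stood over a mean count of 30 in the DMSO group but not in the SCR-6920 group.

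LINC01224, from a cluster of zinc finger genes on chromosome 19, had 4.77, 4.89 and 4.93 CPM with SCR-6920 and 6.72, 8.21 and 7.65 CPM with DMSO (log2 -0.63 ± 0.14, adjusted p = 4.00e-04). LINC01097, from chromosome 4, had 12.8, 13.4 and 12.96 CPM with SCR-6920 and 18.4, 17.4 and 17.2 CPM with DMSO (log2 -0.44 ± 0.09, adjusted p = 1.53e-04). LINC02693, from chromosome 17, had 25.5, 25.7 and 21.2 CPM with SCR-6920 and 31.8, 31.9 and 31.8 CPM with DMSO (log2 -0.40 ± 0.07, adjusted p = 4.12e-05). In all 3 the groups stood apart, and SCR-6920 replicate 3 was the lowest library of LINC02693. LINC02303, the most abundant member per length, had 36.9, 35.6 and 41.5 CPM with SCR-6920 and 45.7, 46.0 and 49.996 CPM with DMSO (log2 -0.31 ± 0.06, adjusted p = 9.08e-05). LINC01278, from chromosome X, averaged 20.6 ± 1.7 CPM with SCR-6920 and 25.5 ± 0.6 CPM with DMSO (log2 -0.31 ± 0.08, adjusted p = 0.00131). These 5, with LINC02593 and LINC01798, stayed called when any 1 library was left out.

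A further 6 falls, counting LINC01089, were lost when some single library was left out. LINC00682, from chromosome 4, averaged 0.854 ± 0.092 CPM with SCR-6920 and 1.53 ± 0.22 CPM with DMSO (log2 -0.84 ± 0.33, adjusted p = 0.0412). Its adjusted p was 0.114, 0.0793 and 0.0575 without SCR-6920 replicates 1, 2 and 3, and 0.139 and 0.0706 without DMSO replicates 1 and 2. LINC02197 averaged 2.61 ± 0.53 CPM with SCR-6920 and 3.90 ± 0.50 CPM with DMSO (log2 -0.58 ± 0.20, adjusted p = 0.0195). Its groups did not overlap, and its adjusted p was 0.0840 and 0.0791 without SCR-6920 replicates 1 and 3, and 0.0758 and 0.0643 without DMSO replicates 1 and 2. LINC01004 averaged 9.21 ± 0.36 CPM with SCR-6920 and 11.7 ± 1.5 CPM with DMSO (log2 -0.34 ± 0.11, adjusted p = 0.0145, 0.05002 without SCR-6920 replicate 3 and 0.123 without DMSO replicate 2).

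LINC00342 averaged 4.83 ± 0.31 CPM with SCR-6920 and 6.29 ± 0.24 CPM with DMSO (log2 -0.38 ± 0.14, adjusted p = 0.0315). Its transcript matches 2 other annotated RNAs at 99.0% and 98.9% identity over its full length in GENCODE 29, so its reads may not be its own, and its level is uncertain. Its adjusted p was 0.0625 and 0.101 without SCR-6920 replicates 1 and 2, and 0.0876 and 0.0588 without DMSO replicates 1 and 2. LINC00630, from chromosome X, averaged 5.97 ± 0.65 CPM with SCR-6920 and 7.60 ± 1.07 CPM with DMSO (log2 -0.35 ± 0.14, adjusted p = 0.0453, 0.0769 and 0.192 without SCR-6920 replicates 2 and 3, 0.254 without DMSO replicate 1). It overlaps 2 coding genes on its own strand, and of these ARMCX5-GPRASP2 stood at 0.340 CPM with SCR-6920 and 0.892 CPM with DMSO (log2 -1.38 ± 0.49, adjusted p = 0.0231, 0.136 without SCR-6920 replicate 1 and 0.134 without DMSO replicate 3).

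LINC01089, also called LIMT and known in breast epithelial cells as a brake on metastasis that growth factor signalling lowers, was the only called member whose groups overlapped. It had 2.80, 4.63 and 2.99 CPM with SCR-6920 and 6.97, 5.58 and 4.19 CPM with DMSO. SCR-6920 replicate 2 stood above DMSO replicate 3. The log2 fold change was -0.68 ± 0.20 (adjusted p = 0.00960), and the adjusted p was 0.0707 and 0.0659 without SCR-6920 replicates 1 and 3, and 0.0537 without DMSO replicate 1. LINC01089 overlaps SETD1B, the gene of a histone H3 lysine 4 methyltransferase, on the opposite strand, and 78.7% of its transcript matches the neighbouring RHOF locus exactly. SETD1B was higher, at 71.8 CPM with SCR-6920 and 65.0 CPM with DMSO (log2 0.14 ± 0.05, adjusted p = 0.0132), a call lost without SCR-6920 replicate 2 or 3 (0.0502 and 0.0677) or DMSO replicate 2 (0.0840). RHOF was not called (log2 -0.13 ± 0.07, adjusted p = 0.165). The sources used here do not state whether counting took strand into account.

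The 93 members that were not called ranged from -0.88 to 0.80 in log2 fold change. Of them, 51 lay within 0.25 of no change, but 29 had 95% intervals reaching past a 2-fold change and could not be resolved at this depth. For 27 the whole interval lay within 0.5 of no change. The 4 best bounded, with intervals inside 0.25, were LINC00205 (0.02, -0.13 to 0.17), LINC01091 (0.04, -0.15 to 0.24), LINC01128 (0.02, -0.17 to 0.20) and LINC02381 (0.09, -0.01 to 0.20). Among the uncalled, 17 members did not overlap between groups, including LINC02381 and LINC00839 (log2 0.12 ± 0.08, adjusted p = 0.290). Called or not, 33.6% of members did not overlap, against 50.6% of all genes tested. The share among all uncalled genes is not given here, so the 17 are not read as missed changes. LINC00467 lay near the threshold at log2 -0.37 ± 0.15 (adjusted p = 0.0535), and was called without SCR-6920 replicate 1 (0.0155) or without DMSO replicate 3 (0.0410). LINC00963 (log2 -0.21 ± 0.09, adjusted p = 0.0758) was called without SCR-6920 replicate 2 (0.0283) or DMSO replicate 1 (0.0277).

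LINC01138 is the member with a known link to the drug target: in liver cancer cells it is reported to bind and stabilise PRMT5. It had 4.56, 4.06 and 3.83 CPM with SCR-6920 and 4.57, 4.77 and 4.46 CPM with DMSO. The groups overlapped, and the log2 fold change was -0.15 ± 0.16 (95% interval -0.48 to 0.18, adjusted p = 0.495). Its transcript shares 57.4% of its length with LINC00869 and 50.1% with LINC01145, both members and neither called, at 95% identity or more, so some of its reads may have been shared with them. Of the 102 members found in GENCODE 29 14 had a copy elsewhere at 95% identity or more over at least 50% of their length, and LINC00342 was the only one of these that was called.

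Summed over all 116, the members reached 771 ± 11 CPM in SCR-6920 libraries and 735.8 ± 5.6 CPM in DMSO libraries (SD, n = 3 each), a ratio of 1.05. The difference of 35.5 CPM had p = 0.1 in an exact two-sided permutation test, the smallest p that 3 against 3 allows. Leaving out LINC00641, a step chosen after seeing the data, the sums were 706.0 ± 8.8 CPM with SCR-6920 and 706.4 ± 8.2 CPM with DMSO, a difference of -0.41 CPM (exact permutation p = 1). Without LINC01000, the member with the highest mean count, the difference was 18.3 CPM. All non-coding genes together took 0.810% to 0.817% of counts in SCR-6920 libraries and 0.837% to 0.875% in DMSO libraries. In bulk RNA, fewer cells carrying a transcript and less of it per cell cannot be told apart.

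The neighbours of the called members were read from the same fit, since some intergenic RNAs act on the genes beside them. Of 30 flanking coding genes tested beside the 23 called members, 12 were called, or 40%, against 42.0% of all genes. Of the flanking genes of all members, 79 of 166 were called, or 47.6%. The 12 called neighbours moved with their LINC RNA in 9 cases and against it in 3. Among risers, LINC01963 lies next to MARCHF4, the gene of a membrane-bound ubiquitin ligase, which was at 4.72 CPM with SCR-6920 and 2.41 CPM with DMSO (log2 0.97 ± 0.22, adjusted p = 5.86e-04). The coding neighbour of LINC01597 was the zinc finger gene ZNF337, on the other arm of chromosome 20, at 68.8 CPM with SCR-6920 and 40.6 CPM with DMSO (log2 0.76 ± 0.05, adjusted p = 6.31e-14). LINC01521 has on its other side DRG1, the gene of a GTP-binding protein (log2 0.27 ± 0.04, adjusted p = 4.72e-07).

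Among the falls, LINC02593 lies beside SAMD11 (log2 -0.27 ± 0.06, adjusted p = 2.15e-04), LINC01224 beside the zinc finger gene ZNF675 (log2 -0.43 ± 0.11, adjusted p = 0.00203) and LINC00342 beside ANKRD36C (log2 -0.51 ± 0.16, adjusted p = 0.00846). LINC01278 lies beside SPIN4, of the spindlin family of histone readers (log2 -0.35 ± 0.10, adjusted p = 0.00992, 0.0596 and 0.0791 without SCR-6920 replicates 1 and 2). LINC02197 lies beside BDP1, a subunit of the RNA polymerase III factor TFIIIB (log2 -0.09 ± 0.03, adjusted p = 0.0171, 0.101 without SCR-6920 replicate 2 and 0.116 without DMSO replicate 1).

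The 3 opposite pairs were LINC01097 with both its neighbours and LINC01004 with KMT2E. NKX3-2, a homeobox gene of skeletal development, stood at 56.0 CPM with SCR-6920 and 40.5 CPM with DMSO (log2 0.47 ± 0.06, adjusted p = 3.82e-08), while LINC01097 beside it fell. RAB28 stood at 35.7 CPM with SCR-6920 and 31.6 CPM with DMSO (log2 0.18 ± 0.06, adjusted p = 0.0260), and was not called without SCR-6920 replicate 2 (0.140) or 3 (0.0524) or DMSO replicate 1 (0.0674) or 3 (0.0803). KMT2E had a log2 fold change of 0.16 ± 0.05 (adjusted p = 0.00735). Separately, 5 members start within 1000 bases of the start of a coding gene that runs the other way. Of those partners, 4 were called, POFUT2 and UBE2J2 higher and UBE2G2 and MRFAP1L2 lower, beside LINC00205, LINC01786, LINC01424 and LINC02482, none of which was called. The fifth pair was LINC01521, which rose, with PATZ1 (log2 -0.06 ± 0.05, adjusted p = 0.377). In no such pair were both genes called.

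**Figure D5:**
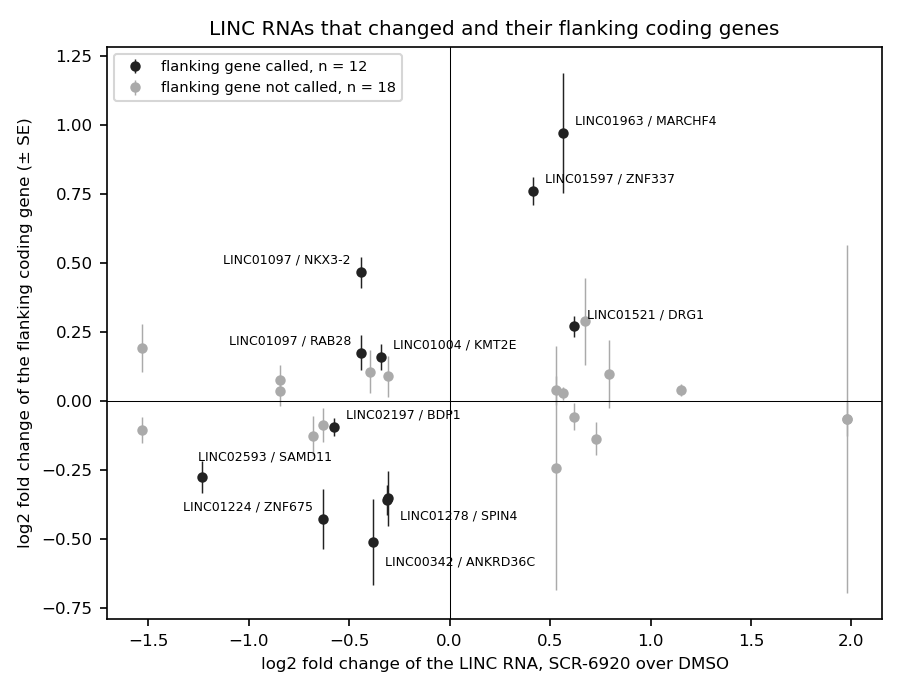
Log2 fold change (SCR-6920 over DMSO) of flanking coding genes, with standard errors as bars, against that of the 23 called LINC RNAs they lie beside, for the 30 neighbours tested. The 12 called neighbours are dark, those described in the text are labelled, and 9 of them lie in the quadrants of shared direction.

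By place, 61 members overlap some annotated gene and 52 overlap none, and 14 overlap a coding gene. Of the 23 called, 14 overlap no gene. Leaving out the 31 members with a copy elsewhere, a shared transcript at the same place or an overlapping coding gene, 8 of 85 were higher and 10 were lower, or 21.2% called, a choice made after seeing the data. Of all genes tested 42.0% were called, and of the other non-coding genes 27.7%, but such genes were not left out of either.

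Other lncRNAs stood beside the members for comparison. Of 15 names of lncRNAs linked to p53, 12 were in the table, 7 were tested, 3 were higher and 2 were lower, against 42.0% of all genes and 27.7% of the other non-coding genes called in either direction. PURPL, a p53-induced RNA that dampens p53, stood at 17.5 ± 0.6 CPM with SCR-6920 and 13.1 ± 0.6 CPM with DMSO (log2 0.42 ± 0.09, adjusted p = 3.02e-04). PVT1, the RNA next to MYC, stood at 9.34 ± 0.13 CPM with SCR-6920 and 5.83 ± 0.60 CPM with DMSO (log2 0.68 ± 0.13, adjusted p = 5.09e-05). PINCR, also p53-induced, had a log2 fold change of 0.72 ± 0.23 (adjusted p = 0.00973, 0.0520 without SCR-6920 replicate 2). NEAT1, the scaffold of paraspeckles, was lower, at 61.1 ± 2.6 CPM with SCR-6920 and 112.7 ± 3.2 CPM with DMSO (log2 -0.88 ± 0.04, adjusted p = 5.77e-17). LINC-PINT was lower too (log2 -0.50 ± 0.16, adjusted p = 0.0102, 0.0998 without SCR-6920 replicate 1), and TP53TG1 and MEG3 were not called.

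Of 19 old and new symbols of LINC-numbered genes reported to encode small proteins, 10 were in the table and 7 were tested. Of the 7, 2 were higher and 5 were not called, against 42.0% of all genes and 45.0% of protein-coding genes called in either direction. Both risers are filed as protein coding under new names: SMIM26 (log2 0.35 ± 0.06, adjusted p = 2.86e-05), of a mitochondrial microprotein, and NBDY (log2 0.37 ± 0.06, adjusted p = 4.62e-06), of a protein that dissolves P-bodies. The 2 members on this list, LINC00467 and LINC01560 (log2 0.31 ± 0.29, adjusted p = 0.422), were not called.

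At the count limit, the members just inside were LINC00304 and LINC02870, each with a mean count of 30, and LINC01694 with 30.7. LINC00304 had 46, 19 and 23 counts with SCR-6920 and 13, 46 and 33 with DMSO, LINC02870 had 10, 23 and 30 with SCR-6920 and 37, 36 and 44 with DMSO, and LINC01694 had 27, 26 and 27 with SCR-6920 and 38, 37 and 29 with DMSO. Just outside, LINC02896 had 18, 20 and 9 counts with SCR-6920 and 32, 47 and 42 with DMSO, LINC00609 had 29, 35 and 37 with SCR-6920 and 18, 19 and 22 with DMSO, and LINC00471 had 32, 27 and 20 with SCR-6920 and 13, 30 and 35 with DMSO. Of the 787 LINC-numbered rows under the limit, 250 had no count and 72 were tested, with 1 higher and 5 lower. Of all non-coding genes tested, 6.08% were higher and 12.5% lower, against 20.6% and 21.3% of all genes tested. Together the 787 held 6.28% of LINC counts.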

How the data were processed

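Gene-level RNA-seq was measured in 6 libraries, 3 per group, made with a stranded mRNA kit, per the labels' protocols. The deposited raw counts and FPKM values were made with HISAT2 and HTSeq, per the submitters' processing notes, which name no versions and give the mouse build GRCm38, although the symbols are human. No coordinates were therefore joined to the table, and names, neighbours and promoters came from RefSeq GRCh38.p14, matched by gene ID; copies were searched among GENCODE 29 transcripts. The deposited FPKM of 21442 genes with a count equalled the count divided by length and column total, within a relative 1e-06. The FPKM values were used as levels per length and in limma 3.58.1 on log2(FPKM + 1) or log2(FPKM + 0.1), with and without a minimum mean of 0.5.

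Counts were fitted in R 4.3.3 with edgeR 4.0.16 (filterByExpr, TMM scaling, robust quasi-likelihood, group only), with p-values adjusted by Benjamini-Hochberg over 14233 genes at 0.05. CPM values were TMM-scaled, except the sums of the marker lists, which were scaled to library size alone. Alternatives were RLE and library size scaling, no and stricter filters, DESeq2 1.42.0, a replicate block, leaving out each library, other thresholds and other count limits. The fit was tested on simulated data. The replicate numbers were not used as pairs in the main fit. Over all genes tested, deviations of same-numbered libraries from their group means correlated at 0.007, 0.005 and 0.038. Such correlations cannot exclude a pairing that affects few genes. No 2 libraries were duplicates, since counts of replicates differed by 3.74 to 9.25 times the sampling variance per gene. The highest values were those of DMSO replicate 1, 6.87 against replicate 2 and 9.25 against replicate 3, while other pairs reached at most 4.44. Over the members alone these 2 pairs stood at 3.47 and 3.82, and DMSO replicates 2 and 3 at 4.03. Without DMSO replicate 1, 24 members were called, with 6 calls gained and 5 lost.

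RNAs named are the 12 largest rises and falls among called members whose groups did not overlap, the 6 most abundant by FPKM, those on either side of the count limit, neighbouring coding genes and members of the lists. LINC01089, LINC01138, overlapping or divergent partners and the 4 best bounded members fell outside this rule and were named after their values were seen. The members and lists were chosen with earlier results of these data known. Some neighbouring genes are not reported here.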

Additional observations from a re-analysis of the deposited data

How the results depend on the processing

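The numbers of higher and lower members stayed within 1.5 times 10 and 13 under every alternative fit, with 1 exception: at an adjusted p under 0.01, 8 were lower. These are numbers and not shares, since the members tested differed. A count limit of 100 left 59 members, 8 higher and 11 lower, and a limit of 20 gave 131, 10 higher and 15 lower. With limma on log2(FPKM + 1) and a minimum mean of 0.5, 9 of 100 were higher and 15 lower. Shares of all genes called under these alternatives are not given here. Leaving out 1 library gave 9 to 12 higher and 9 to 15 lower. The higher summed level of the members was no longer seen without LINC00641, an alternative added after seeing the data. The difference was then -0.41 CPM, beside SDs of 8.8 CPM with SCR-6920 and 8.2 CPM with DMSO. The fit with the replicate block gave 10 higher and 14 lower, adding LINC00467 (log2 -0.37, adjusted p = 0.0464), and it changed no other call. DESeq2 gave 10 higher and 10 lower, losing LINC00342, LINC00630 and LINC00682. Of the 23 called members, 12 stayed called in all 15 alternative fits, 14 in every fit in which they were tested, and none reversed. The stricter filter tested 102 members. The median log2 fold change of all genes shifted by 0.0019 with RLE scaling and by -0.0115 with library size alone.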
